A study of Mus musculus with 16 samples.

Results

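The construct difference in ribosome-bound enrichment was measured in striatal RNA of 8 mice, with all 16 of the 16 libraries of the study. In each mouse the RNA pulled down with astrocyte ribosomes by their hemagglutinin tag (IP) was set over the RNA of the cleared lysate (input), as a log2 ratio. The 4 ratios of mice expressing bARK in astrocytes were then compared with the 4 ratios of mice expressing bARK(D110A), for every gene. All mice were wild type, male, of the C57BL/6J strain and 9 weeks old. The labels number the libraries 1 to 4 within a construct, and an IP and an input library with equal numbers were taken as one mouse. The series' design text counts 4 mice without saying whether in all or for each construct, and the numbering was read as 4 for each. Separate animals are not named in words, and every p-value covers the spread among these libraries, whatever its origin. Neither the promoter nor the vector behind the constructs is given in the sources used here.

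Gq proteins carry signals from receptors for many transmitters to phospholipase C beta, which makes the messenger that releases calcium from the endoplasmic reticulum, and astrocytes respond to several such receptors with calcium signals. Kinases of the GRK2 type (βARK1, gene Adrbk1 in the files, now Grk2) bind active Gq alpha subunits through a regulator-of-G-protein-signalling homology domain, and bARK is a peptide from this kinase. Aspartate 110 lies in that domain, and its replacement by alanine weakens the binding, so bARK(D110A) served as the control peptide. Precipitation of a tagged ribosome is meant to yield RNA being translated in the tagged cells, so that its excess over input marks those cells. In these libraries the excess was not limited to astrocyte markers. Interneuron markers had median log2 enrichments of 2.18 with bARK and 2.05 with bARK(D110A), and ependymal and choroid plexus markers had 2.18 and 1.66. Not every member shared this. Pvalb of the first list and Ttr and Kl of the second had lower mean levels in IP than in input with both constructs. The remaining members of both lists had higher ones. An excess is therefore not read here as proof of astrocyte origin. In such bulk RNA, fewer cells of a type and less RNA per cell cannot be told apart.

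The site that distinguishes the constructs is shown as it stands in the mouse gene, with the codon for aspartate 110 in capitals. It lies in exon 4 of Grk2 on the minus strand, at chr19:4292568-4292594 of GRCm38, which is the mm10 assembly.
Grk2 codon 110: cgagagatctttGACtcctatattatg
This is the mouse genomic form of the site and not the sequence of either construct, whose source species the labels do not give.

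No gene passed the test for a difference in IP enrichment between bARK and bARK(D110A). Of 15850 genes tested, 0 were more enriched with bARK (0%) and 0 were less enriched (0%) at an adjusted p of 0.05, in edgeR's quasi-likelihood test with each mouse as a block and Benjamini-Hochberg adjustment. The smallest adjusted p was 0.339. At an unadjusted p under 0.05 there were 1081 genes with higher enrichment values with bARK (6.82%) and 770 with lower values (4.86%), 1851 in all (11.7%). This balance was not stable: lower values were the more frequent with no count filter (976 higher and 1174 lower) and without bARK mouse 2 (649 and 692), bARK mouse 3 (889 and 1033), bARK mouse 4 (726 and 752) or bARK(D110A) mouse 4 (1034 and 1223). DESeq2 and limma also called 0 genes. At an unadjusted p under 0.05, DESeq2 had 733 genes with higher and 657 with lower values, and limma on the 8 ratios had 920 and 568. All 4 bARK ratios lay above all 4 bARK(D110A) ratios for 528 genes (3.33%), and below them for 412 genes (2.6%).

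The differences were small on the log2 scale. Their median over all genes tested was 0.02, with 5% of genes below -0.27 and 5% above 0.47, and 55.1% of genes had a positive value. The median standard error was 0.096 log2 units. For 13543 genes (85.4%) the 95% confidence interval of the difference, not adjusted for the number of genes, lay between -1 and 1, so a doubling of the enrichment ratio lies outside it. For 10721 genes (67.6%) it lay between -0.5 and 0.5. A total of 193 genes had fitted differences of at least 1 log2 unit in either direction, none of them past the threshold.

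**Figure D1:**
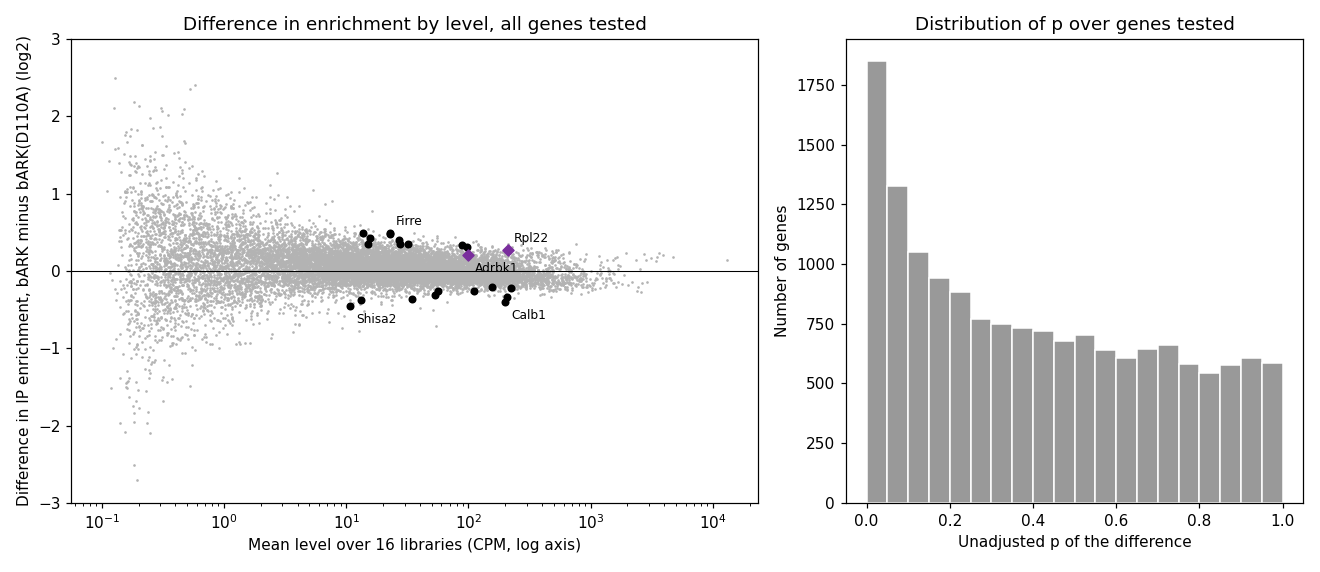
Left: the difference in IP enrichment, bARK minus bARK(D110A), in log2 units against the mean level over 16 libraries in CPM, reads scaled to a common library total, on a log axis, with 1 point per gene tested, black points for genes described by name and diamonds for Rpl22 and Adrbk1. The spread widens at low levels, and 4 genes lie outside the plotted range of -3 to 3. Right: the number of genes by unadjusted p of the difference; the leftmost bar, p under 0.05, holds 1851 genes.

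IP enrichment itself was strong with both constructs. With bARK, IP exceeded input for 6308 genes (39.8%) and lay below it for 6351 (40.1%), and with bARK(D110A) these counts were 6152 (38.8%) and 6248 (39.4%), at an adjusted p of 0.05 in the same edgeR fit. Across genes, ratios of bARK mice correlated with each other at 0.939 to 0.957, ratios of bARK(D110A) mice at 0.931 to 0.951, and ratios of mice with different constructs at 0.925 to 0.959. These ranges overlap. Library totals were 41469718 to 47157883 counted reads in bARK IP, 27807178 to 38003523 in bARK input, 44638121 to 51432173 in bARK(D110A) IP and 29087537 to 37333254 in bARK(D110A) input. On the first principal component of the ratios, which held 22.1% of their variance, bARK mice lay at -1.400, 19.99, 8.56 and 4.69 and bARK(D110A) mice at -10.2, -20.5, 2.06 and -3.23. Mice of both constructs overlap there, with bARK(D110A) mouse 2 at one end and bARK mouse 2 at the other.

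Rpl22 encodes the large-subunit ribosomal protein whose tagged form is used for ribosome precipitation in many such mice and vectors, and Adrbk1 encodes the kinase from which bARK comes. Reads of a tagged and an endogenous Rpl22, or of an expressed peptide and mouse Adrbk1, are not told apart in a table of counts per gene. Rpl22 (chr4:152324436-152334082) had 372, 421, 299 and 340 CPM (reads scaled to a common library total) in bARK IP and 103, 91.4, 77.0 and 92.7 CPM in bARK input. It had 274, 268, 336 and 323 CPM in bARK(D110A) IP and 95.5, 87.8, 95.1 and 89.97 CPM in bARK(D110A) input. The log2 ratios of IP to input were 1.85, 2.20, 1.95 and 1.87 in bARK mice and 1.52, 1.60, 1.82 and 1.84 in bARK(D110A) mice. All bARK ratios lay above all bARK(D110A) ratios, the closest being 0.02 apart. The fitted difference was 0.27 ± 0.09 (SE, n = 4 mice each) and did not pass (edgeR adjusted p = 0.340).

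Adrbk1 had log2 ratios of 0.44, 0.36, 0.01 and 0.46 in bARK mice and 0.09, -0.03, 0.27 and 0.14 in bARK(D110A) mice. The groups overlapped because bARK mouse 3 was low, and the fitted difference of 0.20 ± 0.10 did not pass (edgeR adjusted p = 0.453). Its level averaged 114 ± 15.2 CPM in bARK IP and 90.9 ± 7.15 CPM in bARK input (SD, n = 4 each). With bARK(D110A) it averaged 102 ± 7.80 CPM in IP and 93.8 ± 9.28 CPM in input. Adrbk1 was enriched in IP with bARK, at a fitted log2 of 0.32 (edgeR adjusted p = 0.0013). The bARK(D110A) value of 0.12 did not pass (edgeR adjusted p = 0.14), and the test of the difference is the one given above.

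Since no gene passed, the genes named next are the 10 with the smallest unadjusted p in each direction among genes with a mean of at least 10 CPM. Each has an edgeR adjusted p of 0.339 and none is called. Because they were ranked on this difference, their lack of overlap is a description. The exact permutation test of 4 ratios against 4 gives each of them 0.0286, the smallest p that test can give.

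Among the 10 on the higher side, Firre (chrX:50563120-50635321), a long noncoding RNA retained in the nucleus, was depleted from IP with both constructs. It had 7.26, 8.84, 7.74 and 7.54 CPM in bARK IP and 35.9, 37.4, 38.0 and 39.3 CPM in bARK input. With bARK(D110A) it had 6.03, 5.14, 6.08 and 6.25 CPM in IP and 36.5, 34.9, 43.6 and 44.9 CPM in input. IP levels were above those of bARK(D110A) in every bARK mouse, and input levels overlapped. Its log2 ratios were -2.23, -2.02, -2.22 and -2.31 in bARK mice and -2.50, -2.65, -2.75 and -2.75 in bARK(D110A) mice, for a fitted difference of 0.50 ± 0.09.

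Thbs4, a thrombospondin secreted into the extracellular matrix, was enriched in IP and had log2 ratios of 2.53, 2.46, 2.68 and 2.71 in bARK mice and 2.15, 2.16, 1.99 and 2.29 in bARK(D110A) mice. The ratios of the constructs did not overlap and differed by a fitted 0.47 ± 0.09. Its levels varied far more than its ratio, at 34.9, 40.5, 30.9 and 41.2 CPM in bARK IP and 63.1, 37.9, 18.1 and 42.2 CPM in bARK(D110A) IP. Within a mouse the input moved with the IP: bARK(D110A) mouse 1 had the highest value and bARK(D110A) mouse 3 the lowest on both sides.

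Fkbp10, a prolyl isomerase of the endoplasmic reticulum that acts on collagen, had log2 ratios of 2.39, 2.63, 2.50 and 2.49 in bARK mice and 2.01, 1.89, 2.08 and 2.24 in bARK(D110A) mice (difference 0.49 ± 0.10). Its IP levels overlapped, at 20.8, 26.9, 24.7 and 21.9 CPM with bARK and 22.0, 21.3, 23.8 and 22.1 CPM with bARK(D110A). Its input levels did not overlap, at 3.57, 3.94, 3.96 and 3.50 CPM with bARK and 5.08, 5.37, 5.25 and 4.28 CPM with bARK(D110A). Neither the IP nor the input comparison of Fkbp10 passed on its own (edgeR adjusted p = 0.805 in IP and 0.774 in input). Piezo1, a mechanically gated cation channel, had log2 ratios of 1.82, 1.92, 1.75 and 1.84 in bARK mice and 1.37, 1.61, 1.39 and 1.30 in bARK(D110A) mice (difference 0.43 ± 0.09).

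The other genes on the higher side had fitted differences of 0.30 to 0.40. They were Limd1, a LIM-domain scaffold that restrains Hippo kinases (0.40 ± 0.08), Ganc, a neutral alpha-glucosidase (0.35 ± 0.07), and Il18, a cytokine of the interleukin-1 family (0.35 ± 0.07). Pgpep1, a pyroglutamyl peptidase (0.34 ± 0.07), Ftl1, the ferritin light chain that stores iron (0.34 ± 0.07), and Rps9, a protein of the small ribosomal subunit (0.30 ± 0.06), completed them. Il18 had 50.7, 61.5, 54.6 and 47.7 CPM in bARK IP and 48.0, 38.7, 47.5 and 46.5 CPM in bARK(D110A) IP, and its lowest bARK value lies just below the highest bARK(D110A) value. Ftl1 and Rps9 have many processed pseudogenes, so their counts are uncertain.

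On the lower side, Lamp5 (chr2:136052025-136069917), a neuronal protein of the lysosome-associated membrane protein family, had 32.2, 32.6, 32.3 and 29.8 CPM in bARK IP and 74.5, 82.7, 73.0 and 72.7 CPM in bARK input. With bARK(D110A) it had 36.2, 33.0, 40.3 and 33.8 CPM in IP and 67.7, 62.5, 76.4 and 67.6 CPM in input. All bARK IP values lay below all bARK(D110A) IP values. Its log2 ratios were -1.20, -1.33, -1.17 and -1.27 in bARK mice and -0.89, -0.91, -0.92 and -0.99 in bARK(D110A) mice, a difference of -0.32 ± 0.06.

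Calb1 (chr4:15881264-15906709) encodes calbindin, a calcium buffer abundant in striatal spiny neurons. Its log2 ratios were -0.76, -0.92, -0.62 and -0.88 in bARK mice and -0.48, -0.18, -0.33 and -0.59 in bARK(D110A) mice (difference -0.40 ± 0.09). The nearest mice, bARK mouse 3 and bARK(D110A) mouse 4, were 0.03 apart. In IP it had 139, 149, 167 and 120 CPM with bARK and 159, 152, 216 and 171 CPM with bARK(D110A), which overlap.

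Shisa2, an endoplasmic reticulum protein of the Shisa family, had the largest fitted value of the 10, -0.45 ± 0.09. Its log2 ratios were 0.17, -0.03, 0.10 and 0.07 in bARK mice and 0.43, 0.50, 0.64 and 0.45 in bARK(D110A) mice, so it was near parity in IP and input with bARK and enriched with bARK(D110A). It was a low-level gene, with a mean of 10.7 CPM over the 16 libraries, just above the 10 CPM needed for naming. Cdh4 (R-cadherin, an adhesion molecule) had a difference of -0.37 ± 0.07, and Pcdhga5, a gamma protocadherin, had -0.38 ± 0.09. Pcdhga5 shares its last exons with the other genes of its cluster, so its counts are uncertain.

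The remaining 5 genes lay between -0.34 and -0.21. They were Vat1l, a neuronal relative of a synaptic vesicle protein (-0.34 ± 0.08), Usp29, an imprinted ubiquitin protease (-0.26 ± 0.06), and Syn3, a synapsin of synaptic vesicles (-0.26 ± 0.06). D10Bwg1379e (now Arfgef3), a member of a guanine exchange factor family, had -0.22 ± 0.05, and Nceh1, a neutral cholesterol ester hydrolase, had -0.21 ± 0.05. The summed level of 16 pan-neuronal markers ranged over 5496 to 6105 CPM in bARK IP, 6144 to 6328 CPM in bARK input, 5441 to 6853 CPM in bARK(D110A) IP and 5567 to 6565 CPM in bARK(D110A) input, and none of the markers was at 0 in any group. The part of neuronal RNA in the differences of these 10 genes was not tested.

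**Figure D2:**
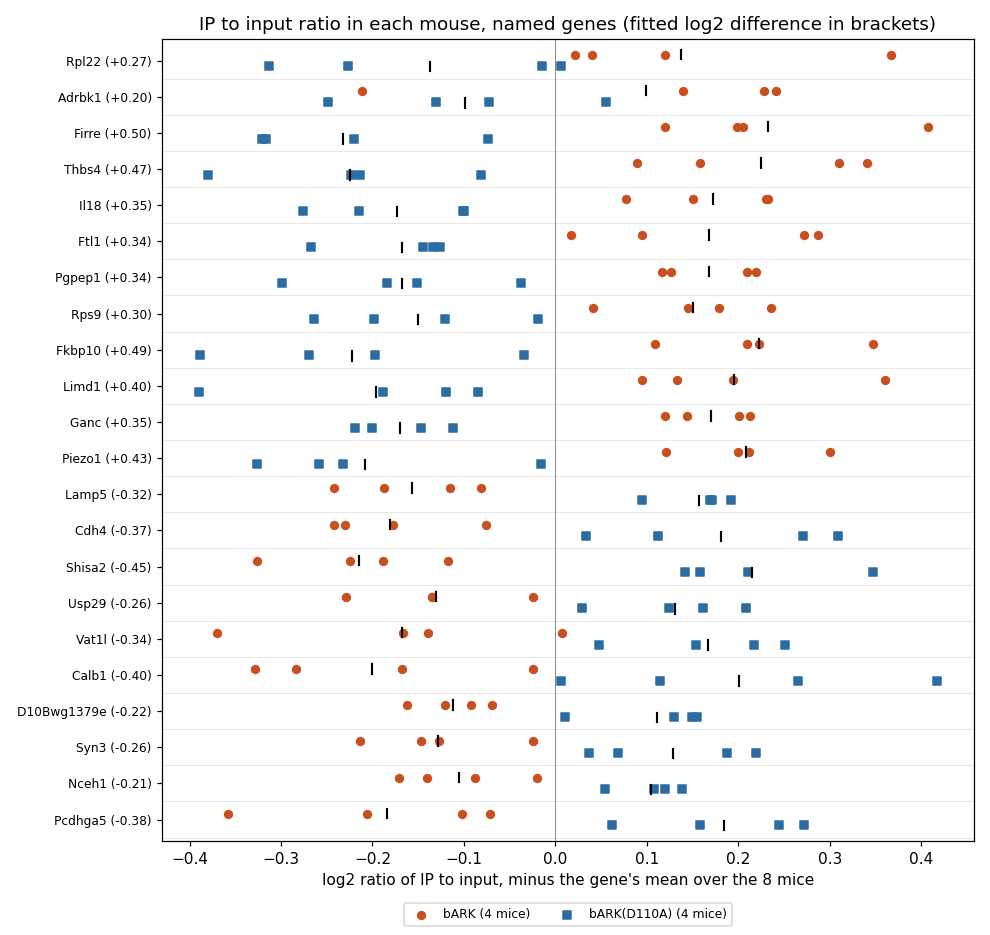
The log2 ratio of IP to input in each mouse, minus the mean of the 8 mice, for Rpl22, Adrbk1 and the 10 genes with the smallest p in each direction; circles are bARK mice, squares bARK(D110A) mice, black ticks the construct means, and brackets give the fitted log2 difference. Ratios overlap for Adrbk1 alone among these genes, and the others were ranked on this difference, except Rpl22.

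The differences varied with how strongly a gene was enriched. Among 507 genes with a mean enrichment over both constructs above 2 log2 units, the median difference was 0.23 and 92.3% were positive. Among 1524 genes between 1 and 2 the median was 0.18, with 88.3% positive, and among 1774 genes between 0.5 and 1 it was 0.08, with 76.4% positive. The 7926 genes within 0.5 of parity had a median of -0.01 and the 1934 genes between -1 and -0.5 a median of -0.06, with 33.5% positive. The 1306 genes between -2 and -1 had a median of -0.03. The most depleted genes again had positive medians, 0.23 over 407 genes below -3 and 0.19 over 472 genes between -3 and -2. The mouse medians of these bins overlapped. Below -3 they were -1.86 to -1.60 with bARK and -2.23 to -1.65 with bARK(D110A). Between -3 and -2 they were -1.16 to -0.99 and -1.23 to -1.08. These ratios add 0.5 CPM to each level, which pulls the ratio of a low-level gene towards 0. Between 1 and 2 the mouse medians did not overlap, at 1.30 to 1.36 with bARK and 1.002 to 1.26 with bARK(D110A), where mouse 2 was again the lowest. In the most enriched bin the median ratios were 2.07, 2.30, 2.14 and 2.18 in bARK mice and 2.00, 1.79, 2.07 and 2.01 in bARK(D110A) mice, which nearly touch at 2.07 without overlapping and place bARK(D110A) mouse 2 lowest. In that bin, IP levels had a median log2 fold of 0.12 for bARK over bARK(D110A) and input levels a median of -0.08. These bins are a description across genes that share the same 16 libraries.

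**Figure D3:**
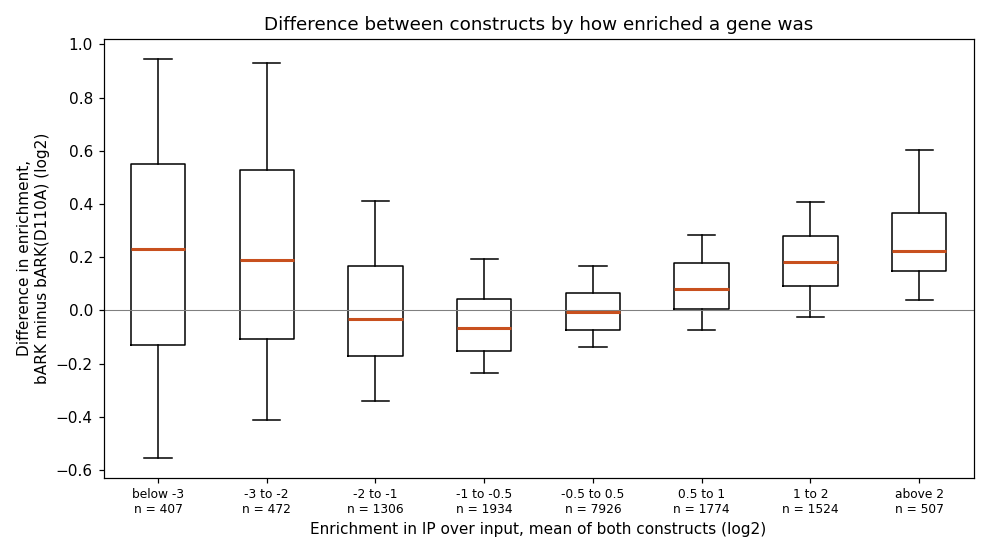
The difference in enrichment, bARK minus bARK(D110A), in log2 units for genes in 8 bins of mean enrichment; boxes span the quartiles, lines the medians, and whiskers the 10th and 90th percentiles. The median is -0.01 near parity and 0.23 above 2 log2 units of enrichment. It is again positive below -2, where the per-mouse medians of the constructs overlap.

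Gene lists were described by their counts and medians beside those of all genes (median 0.02, 55.1% positive), and 0 members of any of the 28 lists passed the edgeR test. Of 526 listed members, 523 were tested, and the 3 that were not were Htr2b, F2rl1 and a nuclear noncoding RNA. The 2 members with the smallest p of each list are named. Counts of members at an unadjusted p under 0.05 are to be read against 6.82% for higher and 4.86% for lower values, and those of members without overlap against 3.33% and 2.6%. These shares cover all genes, and they varied with enrichment. Above 2 log2 units the median was 0.23, with 92.3% positive and 160 of 507 genes higher at that p. Between 1 and 2 these were 0.18, 88.3% and 358 of 1524, and below -3 they were 0.23, 68.3% and 31 of 407. Between -1 and -0.5, 258 of 1934 were lower. Whether a list differs from genes of like enrichment was not tested.

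Astrocyte markers were enriched in IP with both constructs, and all 28 of 28 had a positive difference, with a median of 0.23. Of these, 17 had an unadjusted p under 0.05 and 6 had ratios that did not overlap. The per-mouse median ratio of the list was 2.44, 2.54, 2.38 and 2.43 in bARK mice and 2.29, 1.98, 2.33 and 2.33 in bARK(D110A) mice. The lowest bARK mouse lay 0.05 above the highest bARK(D110A) mouse, and bARK(D110A) mouse 2 stood apart from its group. Without that mouse the median difference was 0.13, with 26 of 28 positive and 10 at an unadjusted p under 0.05. The summed level of the markers was 54095 to 64108 CPM in bARK IP and 10425 to 10859 CPM in bARK input, against 46825 to 55794 CPM in bARK(D110A) IP and 10054 to 11554 CPM in bARK(D110A) input.

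Gfap, the intermediate filament of astrocytes, had log2 ratios of 2.74, 3.06, 3.14 and 3.06 in bARK mice and 2.69, 2.46, 2.77 and 2.73 in bARK(D110A) mice (difference 0.34 ± 0.09, edgeR adjusted p = 0.339). The groups overlapped only through bARK mouse 1. Sox9, a transcription factor of astrocytes, had ratios of 2.51, 2.74, 2.39 and 2.45 in bARK mice and 2.36, 2.07, 2.28 and 2.14 in bARK(D110A) mice, without overlap (difference 0.31 ± 0.08). Genes shared by reactive astrocytes of different injuries had a median of 0.26, with 11 of 12 positive and 4 at an unadjusted p under 0.05, and without bARK mouse 3 a median of 0.12 with 9 of 12 positive. Serpina3n, a serine protease inhibitor, had 0.29 ± 0.09, and Timp1, a metalloprotease inhibitor, had 1.01 ± 0.34. Ratios of both genes overlapped, and Timp1 was a low-level gene, with a mean of 1.33 CPM. Cholesterol synthesis genes, which astrocytes express strongly, had a median of 0.20, with 16 of 16 positive, 6 at an unadjusted p under 0.05 and 2 without overlap, and a median of 0.10 without bARK(D110A) mouse 2. They included Lss (lanosterol synthase, 0.29 ± 0.08) and Pmvk (phosphomevalonate kinase, 0.23 ± 0.08).

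Neuronal lists lay on the other side, with the exception of interneuron markers. Pan-neuronal markers had a median difference of -0.10, and 1 of 16 was positive. Their per-mouse medians were -0.01, -0.13, -0.14 and -0.05 in bARK mice and 0.02, 0.03, 0.11 and 0.02 in bARK(D110A) mice, without overlap, and the median difference was -0.18 without bARK mouse 1. Of the 16, 5 had an unadjusted p under 0.05 on the lower side, led by Rbfox3 (the nuclear protein NeuN, -0.21 ± 0.06) and Map2 (a dendritic microtubule protein, -0.18 ± 0.06). Markers of medium spiny neurons had a median of -0.16, with 0 of 18 positive, 3 at an unadjusted p under 0.05, and overlapping mouse medians of -1.27 to -1.01 with bARK and -1.13 to -0.85 with bARK(D110A). The count at an unadjusted p under 0.05 was 13 of 18 without bARK(D110A) mouse 4 (median -0.24), 11 without bARK mouse 3 and 5 without bARK mouse 2, and it was 2 or 3 without any other mouse. Penk and Tac1, the precursors of enkephalin and substance P, each had -0.24 ± 0.08. Interneuron markers had a median of 0.16, with 7 of 8 positive, but 0 at an unadjusted p under 0.05, and the median was 0.01 when bARK(D110A) mouse 2 was left out and 0.05 without bARK mouse 2. Nos1 (neuronal nitric oxide synthase) had 0.20 ± 0.14, and Chat (choline acetyltransferase) had 0.16 ± 0.12. Unlike the other neuronal lists, interneuron markers were strongly enriched in IP, at a median log2 of 2.18 with bARK and 2.05 with bARK(D110A). Astrocyte markers had 2.45 and 2.25. Pvalb was the exception in the interneuron list. It averaged 18.8 CPM in IP and 22.8 CPM in input with bARK, and 19.0 and 31.0 CPM with bARK(D110A). The origin of the interneuron RNA in IP was not tested.

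Among other glial and vascular lists, oligodendrocyte markers had 14 of 14 positive and a median of 0.14, yet mice differed from each other far more than this. The per-mouse medians were 0.62, -0.13, 0.22 and 0.46 in bARK mice and 0.72, 0.00, -0.25 and 0.08 in bARK(D110A) mice. The median difference lay between 0.00 and 0.33 as single mice were left out. Both groups spanned positive and negative values, and 0 of the 14 reached an unadjusted p under 0.05. Mag and Cnp, proteins of myelin, had 0.27 ± 0.23 and 0.21 ± 0.19. Oligodendrocyte precursor markers had a median of 0.31, with 8 of 8 positive and 3 at an unadjusted p under 0.05, among them Gpr17 (a receptor of committed precursors, 0.42 ± 0.11) and Cspg4 (NG2, also on mural cells, 0.30 ± 0.09). Their mouse medians overlapped, at -0.19 to 0.16 with bARK and -0.45 to -0.12 with bARK(D110A).

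Microglia markers were strongly depleted from IP, with per-mouse median ratios of -4.74 to -4.37 with bARK and -4.88 to -4.42 with bARK(D110A). Their median difference was 0.26, with 13 of 15 positive, and Cx3cr1 (the fractalkine receptor) had 0.30 ± 0.12 and Laptm5, a lysosomal membrane protein, 0.33 ± 0.13. Without bARK mouse 3 the median was 0.14, with 11 of 15 positive. Endothelial markers had a median of 0.16, with 11 of 11 positive and 0 at an unadjusted p under 0.05, led by Slco1a4 (0.26 ± 0.12), a transporter of the blood-brain barrier, and Pecam1 (0.31 ± 0.18), an adhesion molecule. Mural cell markers had a median of 0.17, with 8 of 10 positive, 3 higher and 1 lower at an unadjusted p under 0.05, and single values from -0.43 to 0.41. The mouse medians of this list ran the other way and overlapped, at -1.0001, -0.60, -0.74 and -0.80 in bARK mice and -0.56, -0.57, -0.95 and -0.66 in bARK(D110A) mice. Rgs5, a regulator of G protein signalling in pericytes, had 0.41 ± 0.09 without overlap. The median difference of mural cell markers was 0.26 without bARK mouse 1 and as low as 0.12 without another mouse. Over alternatives that kept all mice it ranged from 0.09 to 0.25. Ependymal and choroid plexus markers had a median of 0.26 with 6 of 8 positive, and their mouse medians ranged over 1.04 to 1.80 with bARK and 0.36 to 1.70 with bARK(D110A). Their median difference was 0.13 without bARK(D110A) mouse 3, 0.16 without bARK mouse 3 and 0.40 without bARK mouse 1. Foxj1, a transcription factor of ciliated cells, had 0.27 ± 0.12, and Ccdc153 had 1.05 ± 0.45. Ratios overlapped for both, and Ccdc153 had a mean of 5.35 CPM.

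The genes of Gq signalling are given by role. Of 22 pathway genes, 9 had a positive difference, 4 higher and 6 lower ones had an unadjusted p under 0.05, and the median was -0.05. The mouse medians were -0.18, -0.17, -0.24 and -0.23 in bARK mice and -0.14, -0.11, -0.05 and -0.16 in bARK(D110A) mice, which do not overlap but approach to 0.02. The median difference was -0.09 without bARK mouse 3, bARK mouse 4 or bARK(D110A) mouse 3, -0.08 without bARK(D110A) mouse 4, and -0.10 over the 19 members with a mean of at least 5 CPM. The summed pathway level was 7847 to 8192 CPM in bARK IP and 7565 to 9496 CPM in bARK(D110A) IP.

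The alpha subunits that receive the signal had differences near 0 where they were well expressed, with Gnaq at -0.01 ± 0.05 and Gna11 at -0.05 ± 0.05, and Gna14, at a mean of 1.01 CPM, at 0.03 ± 0.40. The ratios of Gnaq were 0.31, 0.23, 0.18 and 0.17 in bARK mice and 0.29, 0.16, 0.25 and 0.20 in bARK(D110A) mice, which overlap entirely. Their effector phospholipases differed in sign, with Plcb1 at -0.19 ± 0.08, Plcb2 at 0.31 ± 0.21, Plcb3 at 0.24 ± 0.10 and Plcb4 at 0.18 ± 0.22. Plcb1 was depleted from IP with both constructs (log2 -0.34 and -0.15), while Plcb3 was enriched with both (2.10 and 1.87).

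The receptors for the messenger inositol trisphosphate also had values of both signs, none past the threshold. Itpr2, the form characteristic of astrocytes, had ratios of 1.47, 1.79, 1.55 and 1.57 in bARK mice and 1.22, 1.01, 1.62 and 1.24 in bARK(D110A) mice, with overlap through bARK(D110A) mouse 3 (difference 0.32 ± 0.12, edgeR adjusted p = 0.358). Itpr1, the main neuronal form, had -0.68, -0.64, -0.46 and -0.63 in bARK mice and -0.47, -0.33, -0.16 and -0.61 in bARK(D110A) mice (difference -0.21 ± 0.09, edgeR adjusted p = 0.411). Itpr3 had 0.18 ± 0.36. Among the store-operated calcium entry genes, the pore subunits Orai1 (0.35 ± 0.14), Orai2 (-0.10 ± 0.08) and Orai3 (0.34 ± 0.14) differed in sign, and the sensors Stim1 and Stim2 had -0.12 ± 0.05 and -0.15 ± 0.07. The calcium pump Atp2a2 had -0.10 ± 0.06, with no overlap of ratios.

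Protein kinase C genes, which act below phospholipase C, included Prkcb, with ratios of -0.85, -0.84, -0.70 and -0.89 in bARK mice and -0.62, -0.42, -0.41 and -0.77 in bARK(D110A) mice (difference -0.26 ± 0.08, edgeR adjusted p = 0.340). It overlapped through bARK(D110A) mouse 4. Prkce had -0.78, -0.79, -0.79 and -0.75 in bARK mice and -0.69, -0.44, -0.55 and -0.70 in bARK(D110A) mice, without overlap (-0.18 ± 0.06, edgeR adjusted p = 0.348). Prkca had -0.06 ± 0.06. Prkcd had 0.77 ± 0.52, and its ratio in bARK(D110A) mouse 2, at -1.52, lay far below the other bARK(D110A) mice at 0.19 to 0.64. Rgs2 and Rgs4, which shorten Gq signals, had -0.21 ± 0.12 and -0.17 ± 0.09.

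Of the 23 Gq-coupled receptors tested among 25, 11 had a positive difference, 3 higher and 5 lower ones had an unadjusted p under 0.05, and the median was -0.12. The median was positive without bARK mouse 1 (0.05) and without bARK mouse 3 (0.06). The mouse medians of the list overlapped, at 0.02 to 0.63 with bARK and 0.21 to 0.52 with bARK(D110A). Their means were 0.36 and 0.35, so they did not share the sign of the median difference. The glutamate receptor Grm5, abundant in spiny neurons, had ratios of -0.92, -0.93, -0.75 and -1.06 in bARK mice and -0.71, -0.51, -0.48 and -0.75 in bARK(D110A) mice. The lowest bARK(D110A) mouse reached the highest bARK mouse (difference -0.30 ± 0.08, edgeR adjusted p = 0.339). P2ry2, a receptor for ATP and UTP, had ratios of 1.57, 2.28, 2.27 and 2.09 in bARK mice and 1.14, 1.21, 1.69 and 1.45 in bARK(D110A) mice. They overlapped through bARK mouse 1, at a mean level of 2.58 CPM (difference 0.94 ± 0.27, edgeR adjusted p = 0.339).

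The endothelin receptors Ednrb and Ednra, both enriched in IP, had 0.19 ± 0.07 and 0.35 ± 0.15 and were the 2 receptors whose ratios did not overlap. Ednrb had 2.26, 2.36, 2.31 and 2.32 in bARK mice and 2.19, 1.89, 2.19 and 2.24 in bARK(D110A) mice. The adrenergic receptors Adra1a and Adra1b had 0.08 ± 0.10 and 0.16 ± 0.27, the histamine receptor Hrh1 had 0.07 ± 0.14, and the purine receptor P2ry1 had -0.18 ± 0.15. The muscarinic receptor Chrm1 had -0.15 ± 0.07, and the serotonin receptors Htr2a and Htr2c had -0.43 ± 0.18 and -0.26 ± 0.09. The neurokinin receptors Tacr1 and Tacr3 had 0.04 ± 0.10 and 0.10 ± 0.10, and the thrombin receptor F2r had 0.16 ± 0.15. A further 8 receptors had standard errors of 0.18 to 0.58: Chrm3 -0.12, Chrm5 -0.30, Adra1d 0.90, P2ry6 0.48, Ntsr1 -0.19, Cckbr -0.19, Oxtr -0.16 and Bdkrb2 -0.18. Among the lower-valued receptors at an unadjusted p under 0.05, Htr2a, Grm5, Htr2c and Chrm1 were each depleted from IP with both constructs.

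The kinases and arrestins that shut receptors off had a median of 0.09 over 7 genes, with 6 positive and 0 at an unadjusted p under 0.05. Beside Adrbk1, Adrbk2 had 0.09 ± 0.09, Grk4 had 0.37 ± 0.21, Grk5 had 0.03 ± 0.08 and Grk6 had -0.05 ± 0.06, and the arrestins Arrb1 and Arrb2 had 0.02 ± 0.06 and 0.12 ± 0.09. The cyclic AMP pathway had a median of -0.08, with 6 of 26 positive, and at an unadjusted p under 0.05 were 7 lower genes and 1 higher gene. That gene was Rapgef3, an exchange factor switched by cyclic AMP, with ratios of 2.12, 2.12, 2.04 and 2.12 in bARK mice and 1.76, 1.401, 1.85 and 1.88 in bARK(D110A) mice (difference 0.38 ± 0.09, edgeR adjusted p = 0.339). Its groups did not overlap. Gnal, the G protein subunit of spiny neurons that couples dopamine receptors to adenylyl cyclase, had -0.24 ± 0.07.

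Immediate early genes, whose transcription follows cell activity, had a median of -0.06, with 4 of 16 positive and 2 at an unadjusted p under 0.05 on the lower side. Fos had ratios of 0.42, 0.15, 0.56 and 0.79 in bARK mice and 1.05, 0.76, 0.78 and 0.92 in bARK(D110A) mice (difference -0.41 ± 0.13, edgeR adjusted p = 0.340). Only bARK mouse 4 reached the range of the bARK(D110A) mice. Junb had -0.17 ± 0.07. The median of the list lay between -0.12 and -0.01 as single mice were left out. For the list, IP levels had a median log2 fold of 0.14 and input levels 0.30, bARK over bARK(D110A), in fits where 0 genes passed.

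Ribosomal protein genes had a median of 0.16, with 67 of 77 positive, 19 at an unadjusted p under 0.05 and 11 without overlap, all on the higher side. The mouse medians were -0.78, -0.68, -0.74 and -0.78 in bARK mice and -1.004, -0.92, -0.91 and -0.73 in bARK(D110A) mice, which overlap through bARK(D110A) mouse 4. Besides Rps9, Rps14 had -0.96, -0.82, -0.95 and -0.95 in bARK mice and -1.29, -1.19, -1.29 and -1.03 in bARK(D110A) mice (difference 0.28 ± 0.07). Counts of ribosomal protein genes are uncertain for their processed pseudogenes. Noncoding RNAs retained in the nucleus, which should be scarce on ribosomes, had a median of 0.26, with 6 of 6 positive and 4 at an unadjusted p under 0.05. Snhg11 and Meg3 had 0.39 ± 0.12 and 0.29 ± 0.11. The summed level of these RNAs was 1977 to 2783 CPM in bARK IP and 9427 to 11248 CPM in bARK input, against 1579 to 2074 CPM in bARK(D110A) IP and 8283 to 9453 CPM in bARK(D110A) input. The part of nuclear RNA carried into the IP was not tested.

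Of the stress lists, p53 target genes had a median of 0.27, with 15 of 16 positive, 7 at an unadjusted p under 0.05 and 2 without overlap. The mouse medians were 1.52, 1.89, 1.83 and 1.70 in bARK mice and 1.35, 1.43, 1.65 and 1.31 in bARK(D110A) mice, overlapping through bARK mouse 1. Gtse1, a G2 and S phase protein, had 0.66 ± 0.16, and Phlda3, an inhibitor of Akt, had 0.43 ± 0.11. Interferon-stimulated genes had a median of 0.24, with 12 of 12 positive and 2 at an unadjusted p under 0.05, the transcription factor Stat2 (0.23 ± 0.10) and the tethering factor Bst2 (0.26 ± 0.11). Without bARK mouse 3 their median was 0.13 with 0 members at that p, and without bARK mouse 1 it was 0.34 with 7. Cytosolic chaperones had a median of -0.05, with 5 of 15 positive, and mouse medians that did not overlap, 0.49, 0.44, 0.46 and 0.49 with bARK and 0.50, 0.54, 0.62 and 0.52 with bARK(D110A). Their median difference was -0.10 without bARK(D110A) mouse 2, -0.08 without bARK mouse 3 or 4 and -0.07 without bARK(D110A) mouse 4. Hsph1 had -0.17 ± 0.06 and Hspb8 0.28 ± 0.11. Chaperones and stress genes of the endoplasmic reticulum had a median of 0.00, and 9 of 18 were positive. The sign of this median changed with RLE size factors, DESeq2, no count filter and a filter at 5 CPM. It also changed without bARK mouse 2, 3 or 4 or bARK(D110A) mouse 3 or 4. The transcription factor Atf4 had 0.17 ± 0.07, and Creld2 had 0.16 ± 0.10.

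Metabolic, developmental and hormone-response lists had medians of 0.01 to 0.09. Oxidative phosphorylation subunits had a median of 0.04, with 35 of 50 positive and 2 at an unadjusted p under 0.05, the complex I subunits Ndufc2 (0.15 ± 0.05) and Ndufa2 (0.15 ± 0.06). Glycolysis genes had a median of 0.03 with 10 of 18 positive, including glycogen phosphorylase Pygb (0.21 ± 0.08) and hexokinase Hk2 (0.41 ± 0.16). The sign of this median changed without bARK mouse 2, bARK(D110A) mouse 2 or bARK(D110A) mouse 3. The list members Gapdh and Eno1 averaged only 2.74 and 1.22 CPM in bARK IP, and the cause was not tested. Notch pathway genes had a median of 0.04 with 9 of 15 positive, and the receptors Notch2 and Notch1 had 0.27 ± 0.08 and 0.21 ± 0.07. The Notch median was 0.18 over the 12 members with a mean of at least 5 CPM and -0.01 without bARK mouse 2. BMP and TGF-beta genes had a median of 0.09 with 17 of 22 positive, among them the receptor Bmpr1b (0.16 ± 0.07) and the inhibitor of differentiation Id4 (0.13 ± 0.06). Glucocorticoid response genes had a median of 0.01 with 9 of 16 positive, with the cell cycle inhibitor Cdkn1a at 0.26 ± 0.08 and the immunophilin Fkbp5 at -0.15 ± 0.06. The sign of their median changed with no count filter and without bARK mouse 1 or 4 or bARK(D110A) mouse 2 or 4.

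**Figure D4:**
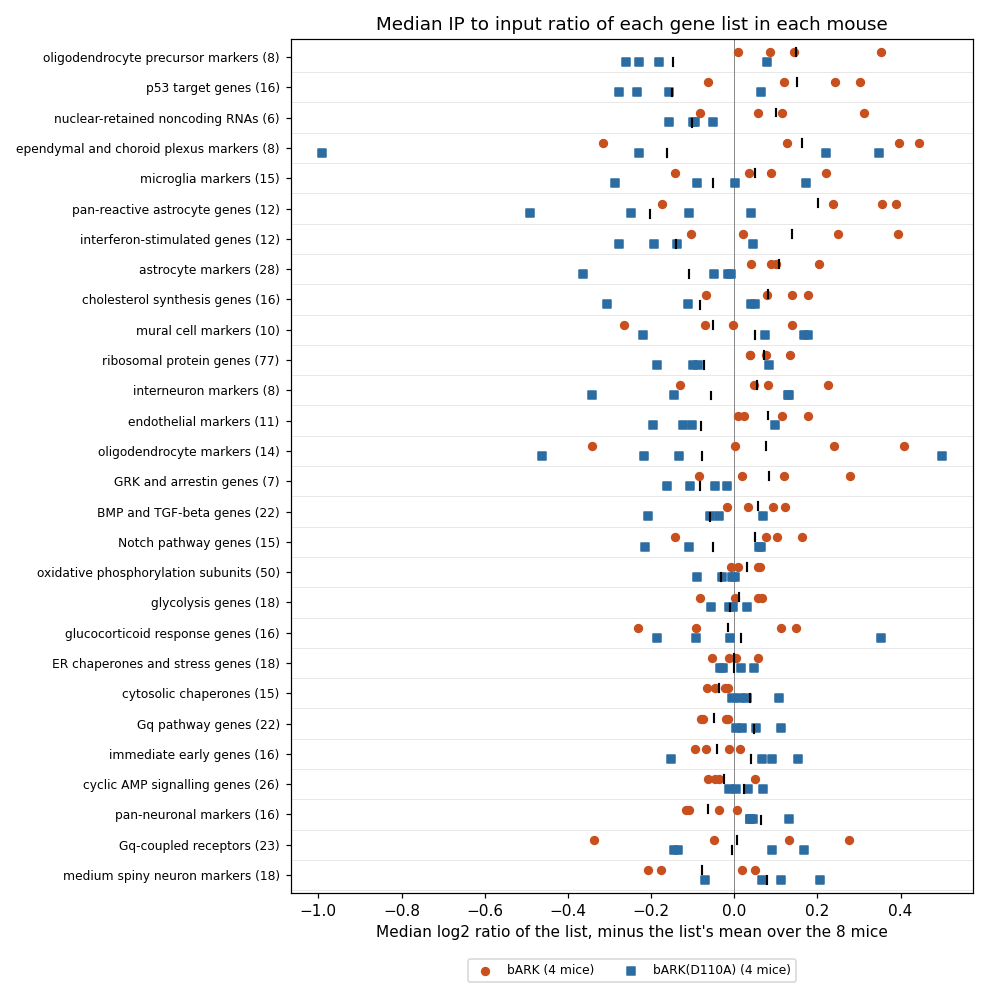
The median log2 ratio of IP to input of each gene list in each mouse, minus the list's mean over the 8 mice, with the number of members tested in brackets; circles are bARK mice, squares bARK(D110A) mice and ticks the construct means. Only the astrocyte, pan-neuronal, Gq pathway and cytosolic chaperone lists have groups of mice that do not overlap, and bARK(D110A) mouse 2 is the low astrocyte value at 1.98 before centring.

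A ratio can differ through its IP or its input, and neither side alone gave a called gene. For bARK against bARK(D110A), 0 of 15006 genes passed in IP (0%) and 0 of 15361 in input (0%) at an adjusted p of 0.05 in edgeR. At an unadjusted p under 0.05 there were 1287 genes in IP (8.58%) and 904 in input (5.89%). The median fold of astrocyte markers was 0.14 log2 in IP and -0.08 in input, bARK over bARK(D110A). Medium spiny neuron markers had -0.09 in IP and 0.08 in input. Oligodendrocyte markers had -0.21 in IP and -0.31 in input, both below 0. Interferon-stimulated genes had 0.40 in IP and 0.12 in input.

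**Figure D5:**
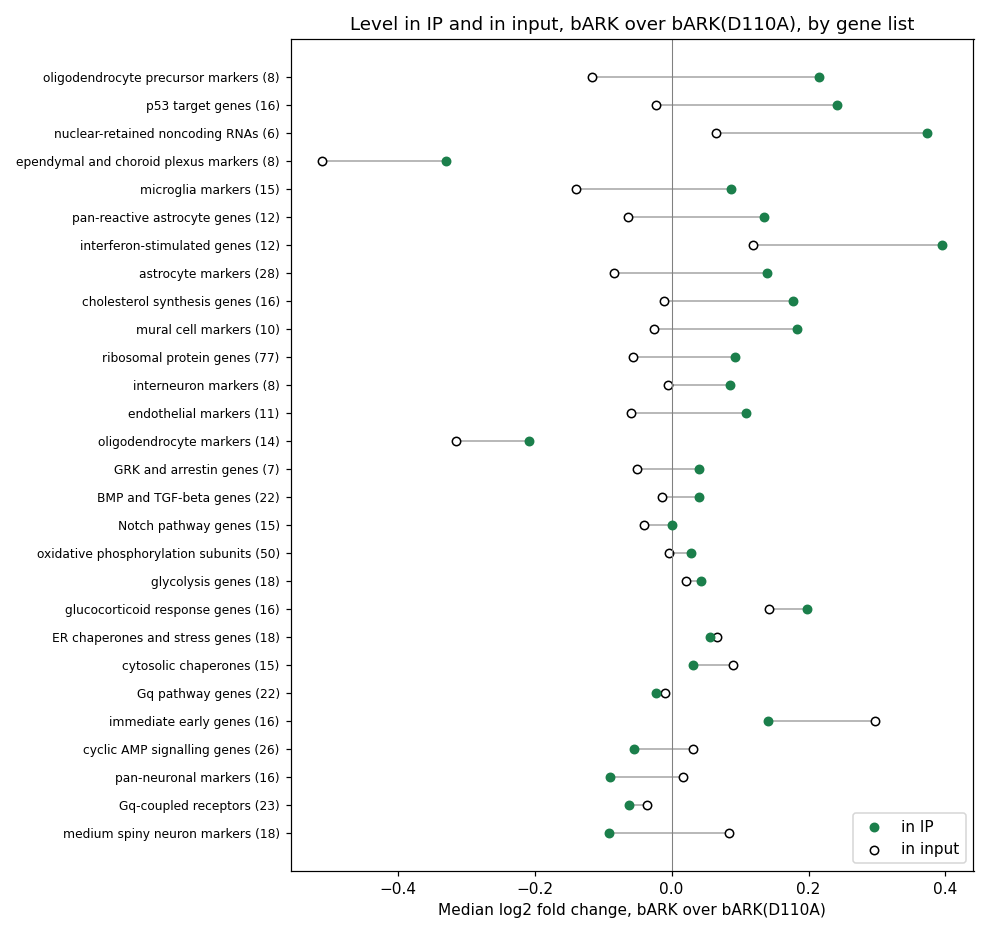
The median log2 fold of bARK over bARK(D110A) in IP (filled) and in input (open) for each gene list, with the number of members in brackets. Astrocyte markers have 0.14 in IP and -0.08 in input, and oligodendrocyte markers have -0.21 and -0.31.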

How the data were processed

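RNA of 4 bARK and 4 bARK(D110A) mice was sequenced as IP and input. The deposited table holds the authors' count of reads per gene and library in whole numbers. Bcl2fastq 2.17, STAR, HTSeq, limma and build mm10 are named, per the submitters' processing notes. Strand setting, annotation and the other versions are not given in the sources used here. The table has 24060 lines for 24058 symbols, 4017 of them with 0 reads throughout; 2 symbols standing on more than 1 line were not named. Of the genes tested, 14946 matched a current and 842 an older symbol of the RefSeq table of GRCm38.p6, and 62 matched none. The codon stretch is from GENCODE M21 transcripts. Overlapping and antisense genes cannot be told apart without strand.

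The edgeR 4.0.16 model (R 4.3.3) had 1 intercept per mouse and an IP term per construct, TMM factors, robust quasi-likelihood dispersion, filterByExpr at a minimum count of 10, and Benjamini-Hochberg adjustment over all genes at 0.05. Per-mouse ratios used CPM plus 0.5. A ± gives the standard error of the fitted log2 difference unless SD is stated. IP and input of a mouse deviated together (r of 0.202 to 0.620 over genes, at most 0.0705 with another mouse), so the numbers pair them. Alternatives were DESeq2 1.42.0, limma 3.58.1 on ratios, other factors and filters, no mouse block, and each mouse left out. The main edgeR test was also run on simulated data. Named were Rpl22 and Adrbk1, then genes that passed, filled to 10 per direction by smallest p at a mean of at least 10 CPM, and 2 members per list; receptors and pathway genes named by role are additional, and 1 listed receptor is counted but not reported here by name. Members, lists and rules were chosen with earlier results of these data known. Counting error sets precision at low CPM.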

Additional observations from a re-analysis of the deposited data

Results flagged for a closer look

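Among 104 groups of 4 mice examined for a mouse far from the others, 3 held one, and chance flags about 1 group in 20. The log2 ratio of Ftl1 in bARK(D110A) mouse 2 was -1.56, against -1.44 to -1.42 in the other bARK(D110A) mice. The median log2 ratio of astrocyte markers in the same mouse was 1.98, against 2.29 to 2.33 in the others. The median log2 ratio of pan-neuronal markers in bARK(D110A) mouse 3 was 0.113, against 0.019 to 0.027 in the other bARK(D110A) mice.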

How the results depend on the processing

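The count of genes that differed in enrichment was 0 in both directions under all 9 alternatives that kept all mice: no mouse block, library size only, RLE and upper quartile factors, DESeq2, limma with 2 pseudocounts, no count filter and a filter at 5 CPM. Leaving out 1 mouse gave 0 to 3 genes with higher and 0 with lower enrichment. The 3 came without bARK mouse 1: Gbp2 (0.57, edgeR adjusted p = 0.0354), H2-Q4 (0.55, edgeR adjusted p = 0.0454), whose MHC relatives make its counts uncertain, and Vim (0.48, edgeR adjusted p = 0.0454). With all mice they had 0.39 (edgeR adjusted p = 0.414), 0.39 (0.348) and 0.33 (0.358). The cause was not tested. Without the replicate block the counts at an unadjusted p under 0.05 were 646 higher and 305 lower, with a smallest adjusted p of 0.825. Over alternatives with all mice they ranged from 646 to 1440 and from 305 to 1174. They moved by over 1.5 times without bARK mouse 2 (649 higher), bARK(D110A) mouse 2 (693 higher) and bARK(D110A) mouse 4 (1223 lower). Within IP and within input, a replicate block by mouse number across constructs called 0 genes; same-numbered mice had r from -0.345 to -0.120 in IP and from -0.0746 to 0.176 in input. For Rpl22, Adrbk1 and the 10 genes ranked in each direction, all 374 alternatives kept their direction and did not pass. The ranked genes were picked on this difference in the same libraries, so their kept direction is a description. The direction of the other genes named in the text was not followed one by one. Of 476 list medians, 21 changed sign, in lists with medians near 0 and in oligodendrocyte markers (-0.0009 without bARK(D110A) mouse 3) and Gq-coupled receptors. Depth limits low genes, with wider intervals.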
